A study of Mus musculus with 20 samples.

Results

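Pair-fed and ad libitum mice on a risperidone diet were compared by RNA sequencing of hypothalamus slices. The comparison used 13 of the 20 libraries of the study: 6 from the risperidone pair-fed group and 7 from the risperidone ad libitum group. Libraries were placed in their groups by their labels. The mice were wild type C57BL/6, and both groups had received the risperidone diet for 4 weeks, so that drug, strain and genotype were shared and feeding differed. The remaining 7 libraries came from control mice fed ad libitum and are given as a background level. The labels say that body weight did not differ from that of mice on the control diet, without settling whether this holds for 1 or both feeding conditions. Age, sex, food intake, the hour of feeding and the hour of tissue collection are likewise not given in the labels. A slice holds neurons of many nuclei together with glia and vessels, so fewer cells of a type and less RNA per cell cannot be told apart in any result below. The labels do not state that each library is a separate mouse, so p-values measure the spread between these libraries, which may be partly technical.

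Risperidone is an antipsychotic that blocks dopamine and serotonin receptors and is known for weight gain. In pair-feeding, an animal is given only as much food as a reference group eats, which commonly means a daily portion that is finished early in place of food that is always present. Immediate early genes such as Fos and Egr1 are transcribed within minutes of neuronal activation and are used as marks of recent activity. Glucocorticoids, the adrenal steroids that follow a daily rhythm and rise with stress, act through a nuclear receptor that switches on genes such as Fkbp5 and Tsc22d3 in neurons, glia and vessels.

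Library totals lay between 17316043 and 18606543 counts, apart from ad libitum library 3 of the risperidone diet with 9748005. In library 3, 16.6% of counts fell in CT010467.1, a ribosomal RNA gene on chromosome 17, against 1.24% to 3.85% in the others. Risperidone ad libitum library 1 stood apart in its tissue content. The 12 markers of cortex, hippocampus and amygdala summed to 4139 CPM (counts scaled to a common library size with TMM) there, against 841.3 to 1098 in ad libitum libraries 2, 4, 5, 6 and 7, 765.3 to 883.9 in the pair-fed libraries and 849.7 to 948.5 in control. No marker of that list was at 0 in every library. Library 1 also held the least mRNA of mature oligodendrocyte markers, with a sum of 3523 CPM against 6480 to 10520 elsewhere. Ad libitum library 2, which was kept in both fits, stood apart in choroid plexus markers, with a sum of 261.7 CPM. The other ad libitum libraries held 73.57 to 112 CPM, the pair-fed libraries 77.35 to 133.8 and control 79.18 to 110.9. None of the 8 choroid plexus markers tested passed in either fit. Markers of the lateral hypothalamus, such as Pmch, which encodes melanin-concentrating hormone, were present in all libraries. Their sum was lowest in ad libitum library 1, at 593.3 CPM, against 903.1 to 1317 elsewhere, and Pmch stood at 164 CPM there, at up to 438 CPM in the other ad libitum libraries and at 362 to 447 CPM in the pair-fed libraries. The main results are therefore given with all 20 libraries in the fit and again with 18, without ad libitum libraries 1 and 3.

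**Figure D1:**
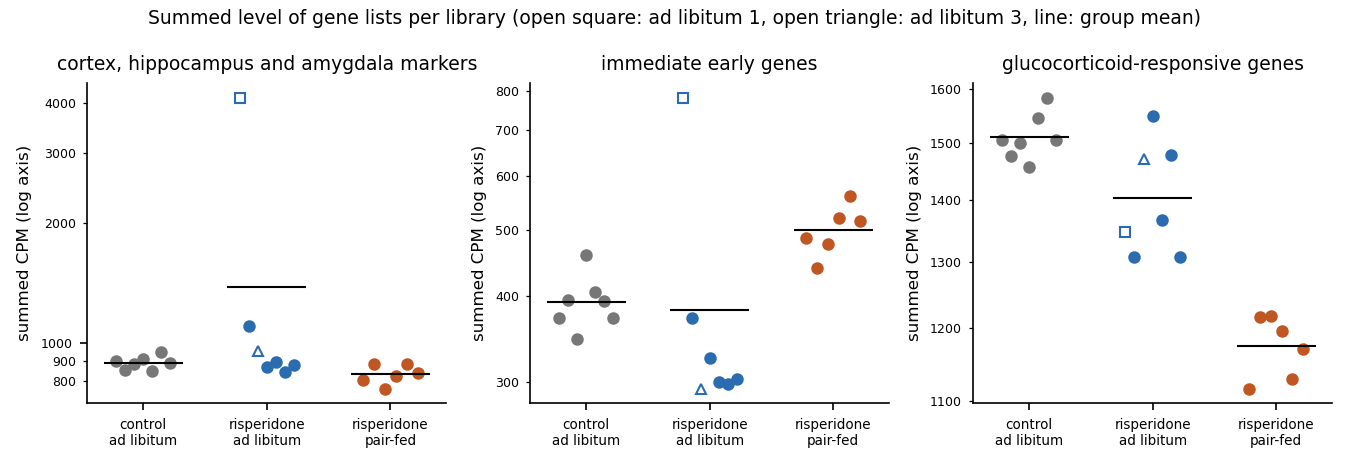
Summed CPM of 3 gene lists (vertical axes, logarithmic) in each library of the 3 groups (horizontal axes); points are libraries, lines are group means, and open symbols are risperidone ad libitum libraries 1 and 3. Library 1 reaches 4139 CPM for cortex, hippocampus and amygdala markers and 782.1 CPM for immediate early genes, while the 6 pair-fed libraries lie at 1116 to 1218 CPM for glucocorticoid-responsive genes, below every other library.

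Across genes, few transcripts differed between the feeding conditions, and more fell than rose. With all libraries, 20 of 17893 genes tested (0.112%) rose and 51 (0.285%) fell in pair-fed against ad libitum mice at an edgeR adjusted p under 0.05. Without ad libitum libraries 1 and 3, 43 of 17978 genes (0.239%) rose and 99 (0.551%) fell. Of these, 16 rose and 49 fell in both fits. The biological coefficient of variation, the spread between libraries of a group beyond counting error, was 11.26% with all libraries and 6.936% without these 2. The log2 fold changes of the genes that passed with all libraries ran from 0.18 to 1.35 for those that rose and from -1.67 to -0.24 for those that fell. The median over all genes tested was -0.0049 with all libraries and 0.0011 without the 2. TMM scaling centres the fold changes near 0, so these medians cannot tell whether there was a general shift. Of all genes tested, 48.4% were higher in pair-fed with all libraries and 50.5% without the 2. An unadjusted edgeR p under 0.05 was held by 1090 higher and 1332 lower genes with all libraries. Without the 2 libraries these numbered 932 and 950. Counts within the gene lists below stand against these shares. The pair-fed and ad libitum libraries did not overlap for 14 of the 20 genes that rose and 32 of the 51 that fell, and without the 2 libraries for 32 of 43 and 74 of 99. Over all genes tested, the pair-fed libraries lay wholly above the ad libitum ones for 47 genes (0.263%) and wholly below for 66 (0.369%), and without the 2 libraries for 114 (0.634%) and 152 (0.845%). Counts of calls moved by over 1.5 times when some libraries were left out: with ad libitum library 1 left out 37 genes rose, with ad libitum library 5 left out 32, and with pair-fed library 5 or 6 left out 10. Those that fell numbered 93 without ad libitum library 1, and 33, 27, 30 and 29 without pair-fed library 1, 4, 5 or 6. Without the 2 ad libitum libraries, the genes that rose numbered 26, 28, 27 and 22 when ad libitum library 4, 6 or 7 or pair-fed library 6 was also left out, and those that fell numbered 61 without ad libitum library 4 and 61 without pair-fed library 6.

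**Figure D2:**
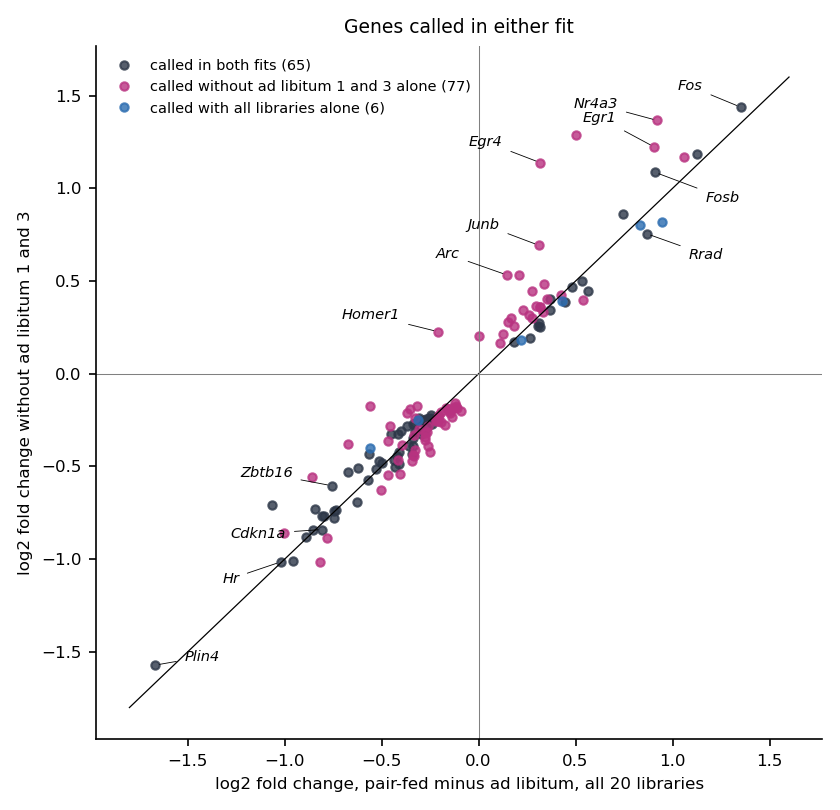
Log2 fold change of pair-fed minus ad libitum with all 20 libraries (horizontal axis) and without ad libitum libraries 1 and 3 (vertical axis) for each gene called in either fit; the diagonal marks equal values. Most genes lie near the diagonal, while Egr4, Nr4a3, Egr1, Arc and Junb lie above it and Homer1 changes sign from -0.21 to 0.23.

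Immediate early genes of the Fos family rose in pair-fed mice, with Fos at the highest fold change of all genes called. Fos and Fosb, and Fosl2 beside them, encode partners of Jun proteins in the transcription factor AP-1. With all libraries, 4 of the 21 immediate early genes tested rose, Fos, Fosb, Fosl2 and Atf3, and none fell. Of the 21, 17 were higher and 4 lower, and their median log2 fold change was 0.21. Over all genes tested, 0.112% rose and 48.4% were higher. This list, too, was chosen with earlier results of these data known. Without ad libitum libraries 1 and 3, 11 of 21 rose, 20 were higher and 1 was lower, and the median was 0.53. Over all genes tested in that fit, 0.239% rose and 50.5% were higher. Beside Fos, Fosb and Fosl2, the 8 that passed there were Junb, Egr1, Egr4, Nr4a1, Nr4a3, Arc, Homer1 and Sik1, while Atf3 missed the threshold.

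The upstream sequences of 3 of these genes are shown because their promoters are textbook cases of activity-driven transcription, in which the factor CREB binds the cAMP response element. The windows are 150 bases ending just before the RefSeq start on GRCm38.p6, read 5′ to 3′ on the gene's strand, and capitals mark the core TGACG of the element on either strand. Fos lies on the plus strand at chr12:85473740-85473889, Fosb on the minus strand at chr7:19310046-19310195 and Nr4a1 on the plus strand at chr15:101266696-101266845.
Fos: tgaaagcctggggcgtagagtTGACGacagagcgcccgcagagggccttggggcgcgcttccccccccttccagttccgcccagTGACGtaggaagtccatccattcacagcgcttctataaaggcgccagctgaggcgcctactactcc
Fosb: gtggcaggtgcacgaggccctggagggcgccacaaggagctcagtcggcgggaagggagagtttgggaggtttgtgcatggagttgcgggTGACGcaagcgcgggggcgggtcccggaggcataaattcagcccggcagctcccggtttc
Nr4a1: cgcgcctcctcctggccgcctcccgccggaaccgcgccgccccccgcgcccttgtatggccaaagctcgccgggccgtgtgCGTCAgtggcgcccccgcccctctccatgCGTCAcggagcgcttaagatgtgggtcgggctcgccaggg
The core began 129 and 66 bases before the start in Fos, 60 bases before it in Fosb, and 69 and 40 bases before it in Nr4a1. Over full windows of 250 bases before and 50 after the start, searched on both strands, 13 of the 16 tested immediate early genes with a window (81.2%) held TGACG, against 23.0% of all 27025 genes with a window. Of the 8 with a window among the 11 that rose without ad libitum libraries 1 and 3, 7 held it. Among members that did not pass in that fit, Atf3, Btg2, Dusp1, Egr2, Npas4 and Nr4a2 held it too, and Ier5 and Jun did not. The core was therefore not particular to the members that rose. The full element TGACGTCA, which contains the core, was in 2 of the 16 (12.5%), Btg2 and Dusp1, which did not pass, and in 0 of the 8 that rose, against 2.03% of all genes. These are matches of letters, not measured binding, and a gene with several windows counted once. Of the 41 genes named by rule, 35 had a window, and 13 of these (37.1%) held the core.

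Fos (ENSMUSG00000021250, chr12:85473890-85477273, GRCm38), the standard mark of recent neuronal activity, stood at 24.7, 35.0 and 38.8 CPM (lowest, median, highest) over the 6 pair-fed libraries. It reached 8.59, 12 and 20.6 CPM over the 7 ad libitum libraries, with the highest value in library 1. Every pair-fed library lay above every ad libitum library, and the control mean lay between, at 21.2 ± 3.63 CPM (SD, n = 7), with control libraries from 17.5 to 28.8 CPM that overlapped both groups. Expressed as a log2 fold change, the difference was 1.35 (SE 0.15, edgeR adjusted p = 2.32e-05), and 1.44 (SE 0.12, edgeR adjusted p = 9.97e-08) without ad libitum libraries 1 and 3. Raw Fos counts ran from 61 to 713 per library, so counting error was small against this difference.

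Fosb (ENSMUSG00000003545), whose truncated product is known to accumulate under repeated stimulation, stood at 16.8, 19.7 and 24.9 CPM in pair-fed and 8.21, 9.45 and 18.99 CPM in ad libitum libraries. Only ad libitum library 1 reached into the pair-fed range, and the other 6 ended at 12 CPM. Fosb rose by a log2 fold change of 0.91 (SE 0.15, edgeR adjusted p = 0.004) and 1.09 (SE 0.11, edgeR adjusted p = 2.77e-06) without the 2 libraries. The counts do not separate full-length Fosb from its truncated form. Fosl2 stood at 34.2, 43.5 and 50.8 CPM in pair-fed against 19, 24.5 and 36.1 CPM in ad libitum libraries, the last again library 1. Its log2 fold change was 0.75 (SE 0.12, edgeR adjusted p = 0.004). Control means were 16.4 CPM for Fosb and 34.0 CPM for Fosl2, between the means of the 2 risperidone groups. Atf3, a stress-induced factor of the same protein class, was scarce: its levels were 1.95, 2.73 and 3.79 CPM in pair-fed and 1.30, 1.55 and 1.88 CPM in ad libitum libraries. Its groups did not overlap, and it passed with all libraries (log2 fold change 0.83, edgeR adjusted p = 0.0434) but not without the 2 (0.80, edgeR adjusted p = 0.066).

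**Figure D3:**
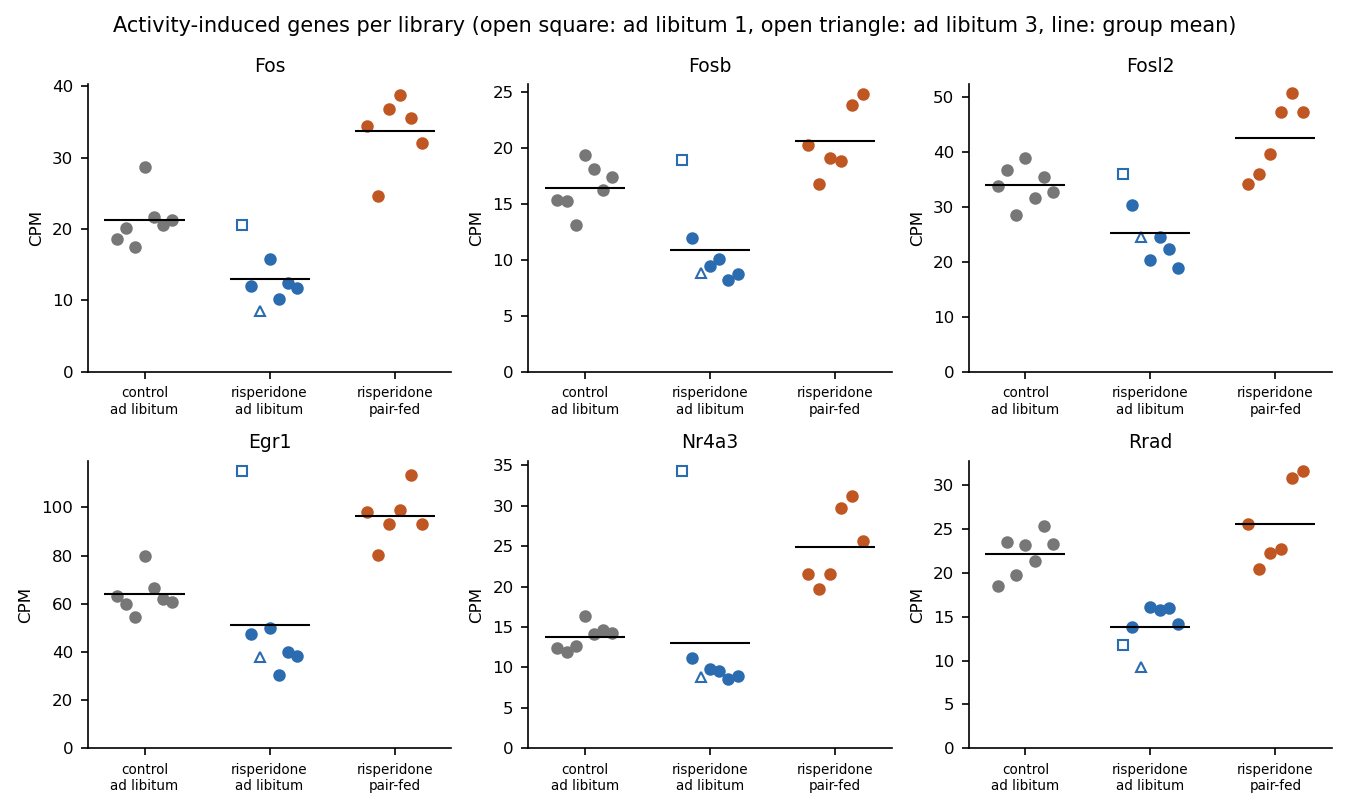
CPM (vertical axes, from 0) of Fos, Fosb, Fosl2, Egr1, Nr4a3 and Rrad in each library of the 3 groups (horizontal axes); points are libraries, lines are group means, and open symbols are risperidone ad libitum libraries 1 and 3. For Egr1 and Nr4a3 library 1, at 115 and 34.2 CPM, lies above all pair-fed libraries, while the other 6 ad libitum libraries lie below them.

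In the main fits, calls of Egr and Nr4a factors and of the synaptic gene Arc depended on ad libitum library 1. Egr1, a zinc finger factor induced through the ERK pathway, stood at 80.3, 95.8 and 114 CPM in pair-fed libraries. Ad libitum libraries 2, 4, 5, 6 and 7 held 30.5 to 49.8 CPM and library 3 held 38.0 CPM, while library 1 held 115 CPM. With all libraries the log2 fold change was 0.90 and did not pass (edgeR adjusted p = 0.0556). Egr1 passed in 7 of 30 alternatives. With library 1 kept, these were upper quartile scaling, no low-count filter, DESeq2, limma-voom and the replicate block. Without libraries 1 and 3 it was 1.22 (SE 0.10, edgeR adjusted p = 9.97e-08), and the groups did not overlap. Nr4a3, an orphan nuclear receptor, went from a log2 fold change of 0.92 (edgeR adjusted p = 0.115) to 1.37 (SE 0.11, edgeR adjusted p = 9.97e-08). Its pair-fed levels were 19.7, 23.6 and 31.2 CPM, against 8.599 to 11.2 CPM in the 5 remaining ad libitum libraries and 34.2 CPM in library 1.

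Arc, which encodes a capsid-forming protein of active synapses, held 23.3 to 29.5 CPM in pair-fed and 16.8 to 22.4 CPM in the 5 ad libitum libraries, with 56.7 CPM in library 1. Its log2 fold change was 0.15 (edgeR adjusted p = 0.793) with all libraries and 0.53 (edgeR adjusted p = 0.00027) without the 2. Junb went from 0.31 (edgeR adjusted p = 0.564) to 0.69 (edgeR adjusted p = 0.00145), with 49.8 CPM in library 1 against 12.8 to 19.5 CPM in the other 6. Egr4 went from 0.32 (edgeR adjusted p = 0.76) to 1.14 (edgeR adjusted p = 0.000562). Its lowest count was 6, in ad libitum library 3, and 25, in control library 1, in the fit without the 2. Nab2, which encodes a repressor that binds Egr proteins, went from 0.27 (edgeR adjusted p = 0.404) to 0.45 (edgeR adjusted p = 0.00585). Homer1, a postsynaptic scaffold, was lower in pair-fed with all libraries (-0.21, edgeR adjusted p = 0.719) and rose without the 2 (0.23, edgeR adjusted p = 0.0274), since library 1 held 100.5 CPM against 27.5 to 32.1 CPM. Egr1, Nr4a3, Arc, Junb, Egr4 and Nab2 also passed when ad libitum library 1 alone was left out. Library 1 was thus highest of all libraries in both the summed cortex markers and the summed immediate early genes (782.1 CPM), and the part of its tissue content in these genes was not tested. In ad libitum libraries 2, 4, 5, 6 and 7 the immediate early genes summed to 298.1 to 371.6 CPM, against 440.6 to 561.2 CPM in pair-fed and 346.3 to 460.6 CPM in control libraries.

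The 12 feedback genes of the ERK pathway, which damp the kinase that drives Egr1, held no call. None passed in either fit, 10 of 12 were lower in pair-fed with all libraries, and the median log2 fold change was -0.09. Without ad libitum libraries 1 and 3, 7 were lower and 5 higher, with a median of -0.07. The list sum was 516.6 CPM in ad libitum library 1. It was 412.8 to 431.6 CPM in ad libitum libraries 2, 4, 5, 6 and 7, and 387.6 to 414.9 CPM in pair-fed libraries. Dusp6, an ERK phosphatase, stood at 13.9 to 16.5 CPM in pair-fed and 13.8 to 32.3 CPM in ad libitum libraries (log2 fold change -0.32, edgeR adjusted p = 0.313).

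Other genes that rose were led by Rrad (ENSMUSG00000031880, chr8:104628070-104631327), a small GTPase that inhibits voltage-gated calcium channels. Rrad stood at 20.5, 24.1 and 31.6 CPM in pair-fed against 9.30, 14.2 and 16.1 CPM in ad libitum libraries. The groups did not overlap, and libraries 3 and 1 were the lowest of the ad libitum group. Rrad rose by a log2 fold change of 0.87 (SE 0.12, edgeR adjusted p = 0.000369) and 0.76 (edgeR adjusted p = 0.000157) without them, with a control mean of 22.1 CPM. Rrad overlaps Gm33023 on the opposite strand, and the strand setting of the counting is not given in the sources used here, so its reads may be shared. The same limit holds for other genes that rose in either fit, among them Coq10b, Sox21, Dbp, Gpr3, Atf3, Nab2, Junb and Nr1d1.

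Nes, which encodes the intermediate filament nestin of progenitors, tanycytes and some vessels, stood at 13.8 to 19.9 CPM in pair-fed and 10.04 to 13.7 CPM in ad libitum libraries (log2 fold change 0.53, edgeR adjusted p = 0.00757). Coq10b, a mitochondrial coenzyme Q-binding protein, rose by a log2 fold change of 0.37 (edgeR adjusted p = 0.004), from 14.2 to 17.6 CPM in ad libitum to 18.5 to 22.8 CPM in pair-fed libraries. Sox21, a SoxB transcription factor, rose by 0.45 (edgeR adjusted p = 0.00789). The groups of Nes, Coq10b and Sox21 did not overlap. Markers of ependyma and of tanycytes, other cells of the ventricular wall, held no call among 10 and 11 tested, with medians of 0.28 and 0.05, and their part in the level of Nes was not tested. Gpr3, a receptor that raises cAMP without a known ligand requirement, rose by 0.48 (edgeR adjusted p = 0.0158), and Twistnb, a subunit of RNA polymerase I, by 0.31 (edgeR adjusted p = 0.0144). Sall2, a zinc finger factor, rose by 0.18 (edgeR adjusted p = 0.028) and Pipox, a peroxisomal oxidase of pipecolic acid, by 0.56 (edgeR adjusted p = 0.0323). The fit to the risperidone groups alone called none of Sox21, Gpr3, Twistnb, Sall2 and Pipox, whose calls were lost under 2, 3, 3, 9 and 11 of the 30 alternatives. Dnajb1, an HSP40 cochaperone, was the 1 member of 16 heat shock genes that passed, at 79.2 to 100.4 CPM in pair-fed and 53.7 to 74.8 CPM in ad libitum libraries (0.30, edgeR adjusted p = 0.0414). Of the other heat shock genes, 10 were lower, and the list's median was -0.02.

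Most of the 22 listed glucocorticoid-responsive genes were lower in pair-fed mice, with or without the 2 libraries. The list was chosen with earlier results of these data known, so its counts are a description and not independent support. With all libraries, 8 of 22 fell, none rose, 20 were lower and 2 higher, and the median log2 fold change was -0.28. Over all 17893 genes tested, 0.285% fell and 9240 were lower. Those that fell were Plin4, Hif3a, Cdkn1a, Zbtb16, Gpd1, Mertk, Fkbp5 and Tsc22d3. Without ad libitum libraries 1 and 3, 9 of 22 fell, with Nfkbia added, and the median was -0.30, while 0.551% of all genes tested fell. The list sum was 1116 to 1218 CPM in pair-fed libraries, 1307 to 1550 in ad libitum and 1457 to 1584 in control. Pair-fed libraries therefore lay below both ad libitum groups in this sum, with no overlap. The number that fell dropped to 5 when pair-fed library 4, 5 or 6 was left out. The gene of the glucocorticoid receptor itself, Nr3c1, was not called (0.10, edgeR adjusted p = 0.387).

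Cdkn1a (ENSMUSG00000023067, chr17:29090976-29100727), which encodes the cell cycle inhibitor p21, stood at 16.9, 20.4 and 21.2 CPM in pair-fed libraries. Ad libitum libraries held 29.8, 34.2 and 38.9 CPM, and control held 39.5 ± 3.09 CPM (SD, n = 7). No pair-fed library reached any other library. This gave a log2 fold change of -0.81 (SE 0.07, edgeR adjusted p = 1.09e-06), and -0.84 (edgeR adjusted p = 9.97e-08) without the 2 libraries. Plin4 (ENSMUSG00000002831, chr17:56100591-56109803), which encodes a perilipin of lipid droplets, had the lowest fold change of all genes that passed. It stood at 9.68, 15.04 and 20.3 CPM in pair-fed against 27.8, 45.0 and 87.3 CPM in ad libitum libraries, where the lowest was library 1 and the highest library 3. Its log2 fold change was -1.67 (SE 0.21, edgeR adjusted p = 0.000279), and -1.57 (SE 0.16, edgeR adjusted p = 1.49e-06) without both.

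Tsc22d3, which encodes GILZ, a leucine zipper protein induced directly by the receptor, stood at 88.6, 97.2 and 108.4 CPM in pair-fed and 108.4, 134.0 and 146 CPM in ad libitum libraries. All 6 pair-fed libraries lay below the ad libitum range, by less than the printed digit for the closest pair. Its log2 fold change was -0.41 (SE 0.07, edgeR adjusted p = 0.00275), and -0.49 (edgeR adjusted p = 4.81e-06) without the 2 libraries. Fkbp5, a cochaperone that restrains the receptor and is among its best known targets, held 27.9, 30.8 and 40.5 CPM in pair-fed and 34.8, 46.4 and 64.7 CPM in ad libitum libraries. Here 5 of 6 pair-fed libraries lay below the ad libitum range (log2 fold change -0.57, SE 0.12, edgeR adjusted p = 0.0323). Its control mean was 59.7 CPM, and its call was lost under 8 of the 30 alternatives. Without the 2 libraries the log2 fold change of Fkbp5 was -0.43 (edgeR adjusted p = 0.0442), and it was called in only 13 of 27 alternatives. Hif3a, a hypoxia-inducible factor subunit, changed by -0.84 (edgeR adjusted p = 0.00157), with 11.2 to 17.2 CPM in pair-fed and 19.8 to 41.3 CPM in ad libitum libraries, the highest being library 3. Mertk, a receptor with which astrocytes and microglia engulf debris, changed by -0.62 (edgeR adjusted p = 0.000844), Gpd1, which links glycolysis to glycerol synthesis, by -0.67 (edgeR adjusted p = 0.0152), and Zbtb16, a zinc finger repressor, by -0.76 (edgeR adjusted p = 0.0368). Cdkn1a, Plin4, Fkbp5, Hif3a, Mertk and Gpd1 overlap genes on the opposite strand. Among members that did not pass, the log2 fold change was 0.10 for Per1, also a clock gene, -0.21 for the kinase Sgk1, -0.14 for Klf9 and -0.15 for the metallothionein Mt1.

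**Figure D4:**
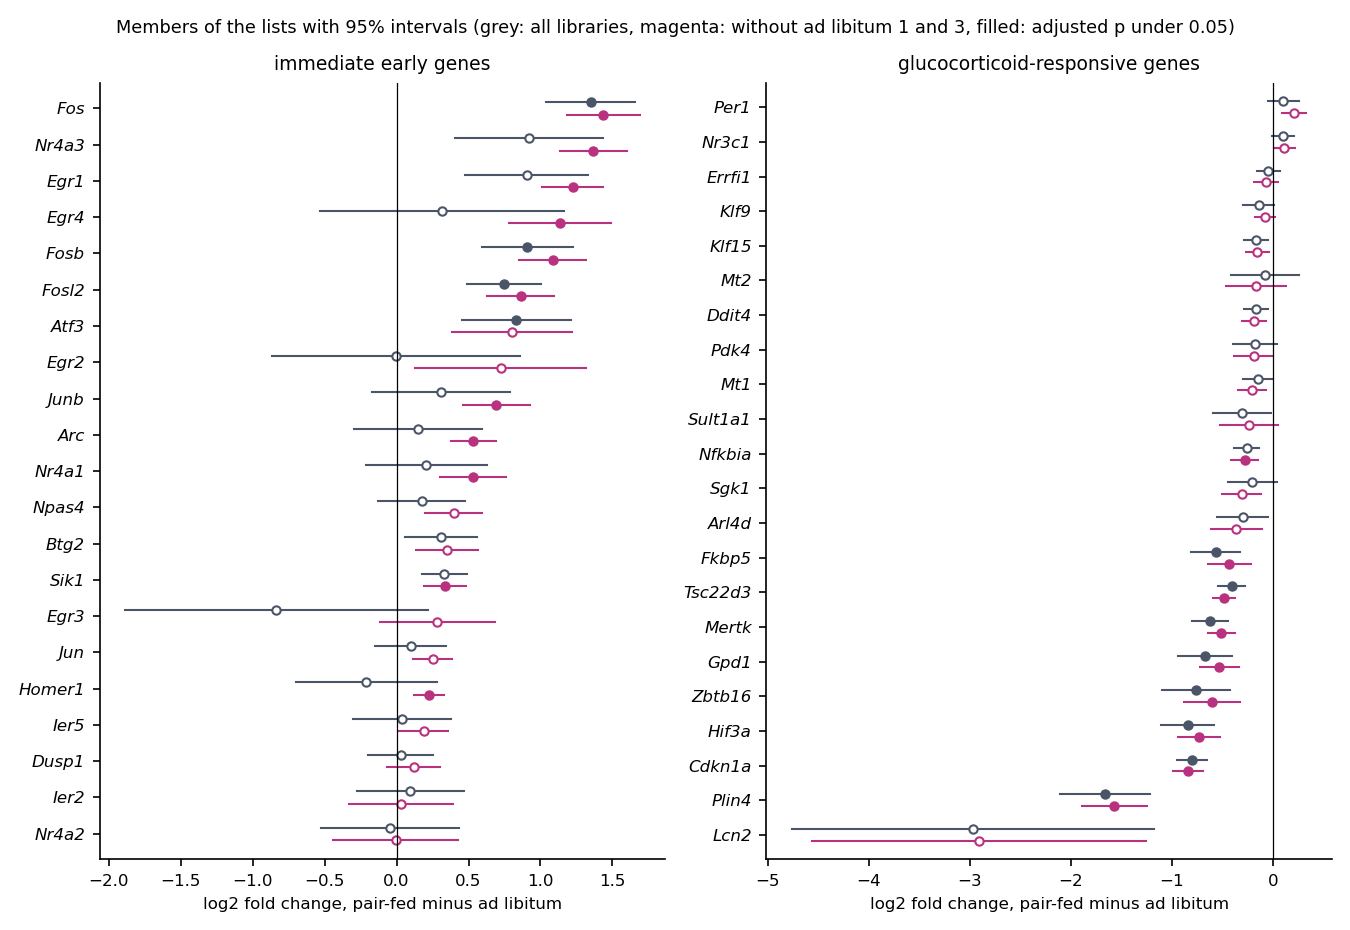
Log2 fold change of pair-fed minus ad libitum (horizontal axes) with 95% intervals for each tested immediate early gene and glucocorticoid-responsive gene (vertical axes), with all libraries in grey and without ad libitum libraries 1 and 3 in magenta; filled points passed. Immediate early genes shift to the right without the 2 libraries, to a median of 0.53, while the glucocorticoid-responsive genes stay near their median of -0.28.

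Among the remaining genes that fell were Mfsd2a and Slc2a1, which are transporters of the blood-brain barrier, and Glul, Fam107a, Htra1 and Sdc4. Mfsd2a (ENSMUSG00000028655, chr4:122946850-122961188), which carries lysolipids with docosahexaenoic acid across brain endothelium, stood at 27.6, 28.9 and 32.4 CPM in pair-fed against 42.7, 50.2 and 54.6 CPM in ad libitum libraries. The control mean was 51.4 CPM, so the pair-fed level was the one that stood apart. Its fitted log2 fold change was -0.75 (SE 0.06, edgeR adjusted p = 1.06e-06), the lowest adjusted p of any gene with all libraries, and -0.74 without the 2. Slc2a1, the GLUT1 glucose transporter of endothelium and astrocytes, stood at 110, 120 and 127 CPM in pair-fed and 129, 149 and 170 CPM in ad libitum libraries (-0.34, edgeR adjusted p = 0.0019). These were 2 of the 15 blood-brain barrier transporters; 7 of the 15 were higher and 8 lower, and the median was -0.02. None of 12 endothelial markers passed in either fit, and their sum was 251.9 to 320.6 CPM in pair-fed and 228.4 to 297.7 CPM in ad libitum libraries.

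Glul, which encodes the glutamine synthetase of astrocytes, stood at 1121, 1252 and 1297 CPM in pair-fed and 1428, 1504 and 1611 CPM in ad libitum libraries. The groups did not overlap (log2 fold change -0.30, SE 0.04, edgeR adjusted p = 0.00121). Fam107a, an actin-binding protein known to respond to glucocorticoids and stress, stood at 262, 277 and 339 CPM in pair-fed and 382, 418 and 480 CPM in ad libitum libraries. Its log2 fold change was -0.57 (SE 0.06, edgeR adjusted p = 1.42e-05). Htra1, a secreted serine protease, changed by -0.43 (edgeR adjusted p = 0.000336), and Sdc4, a cell surface proteoglycan, by -0.36 (edgeR adjusted p = 0.00121). The groups of Fam107a, Htra1 and Sdc4 did not overlap. Tekt4 fell by -0.80 (edgeR adjusted p = 0.00121), at 2.98 to 4.12 CPM in pair-fed and 4.33 to 7.89 CPM in ad libitum libraries. Ppp1r10 fell by -0.40 (edgeR adjusted p = 0.00157), Arrdc2 by -0.63 (edgeR adjusted p = 0.0335) and Nde1 by -0.34 (edgeR adjusted p = 0.0362). The calls of Arrdc2 and Nde1 were lost under 9 and 14 of the 30 alternatives, and Nde1 overlaps Marf1 on the opposite strand. Glul, Htra1 and Slc2a1 also overlap genes on the opposite strand (Teddm2, Fgfr2, and Gm12867 with Gm12868). None of the 12 astrocyte markers passed with all libraries, and 3, Aldh1l1, Gjb6 and Fgfr3, fell without the 2, by -0.18, -0.26 and -0.16. The astrocyte sum was 2926 to 3237 CPM in pair-fed and 3111 to 3547 CPM in ad libitum libraries, and its part in the lower Glul and Fam107a was not tested.

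**Figure D5:**
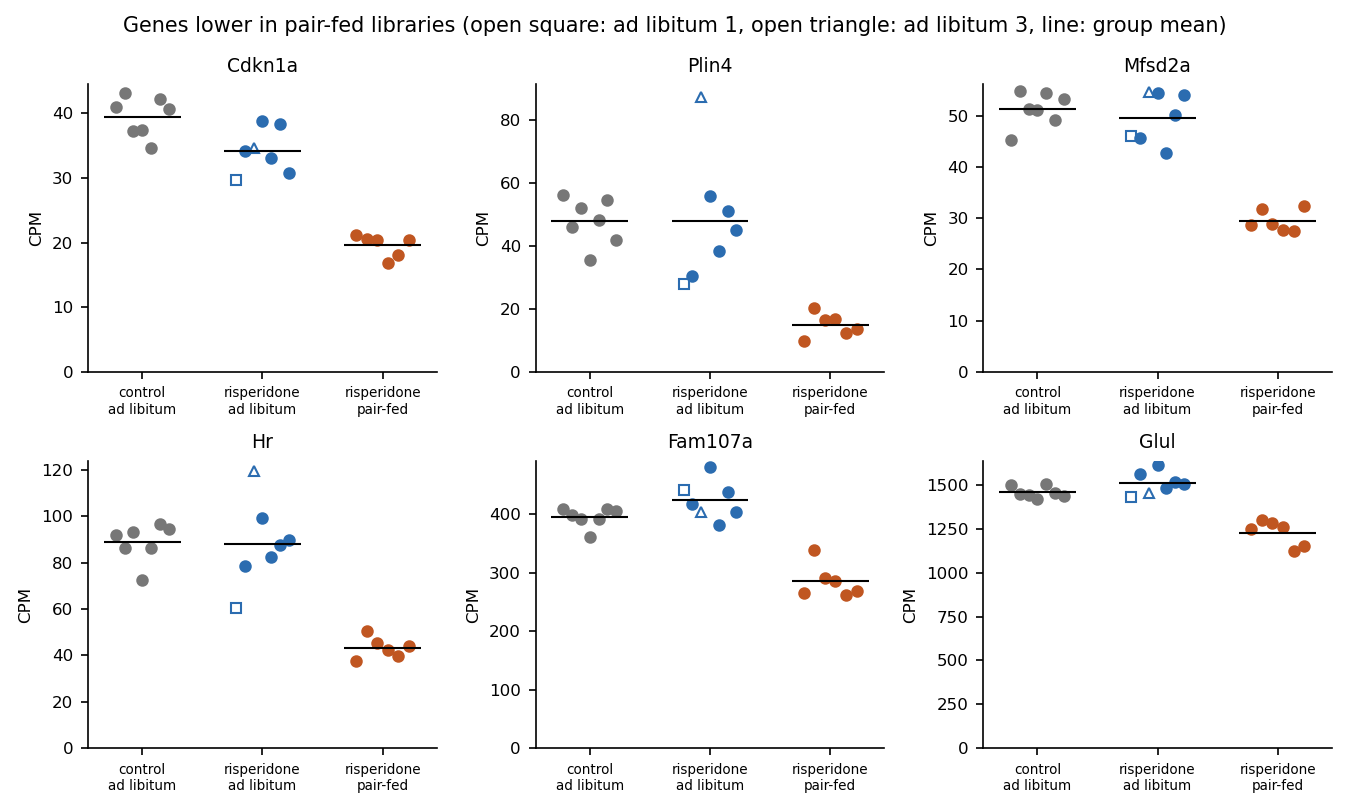
CPM (vertical axes, from 0) of Cdkn1a, Plin4, Mfsd2a, Hr, Fam107a and Glul in each library of the 3 groups (horizontal axes); points are libraries, lines are group means, and open symbols are risperidone ad libitum libraries 1 and 3. In all 6 panels each pair-fed library lies below each ad libitum library of both diets, with and without the open symbols.

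Genes read as targets of thyroid hormone and of the circadian clock held few calls. Hr (ENSMUSG00000022096, chr14:70552212-70573548), a corepressor that thyroid hormone induces in brain, stood at 37.7, 43.2 and 50.4 CPM in pair-fed and 60.5, 87.5 and 119.7 CPM in ad libitum libraries. The lowest ad libitum value was library 1 and the highest library 3, and no pair-fed library reached either. The log2 fold change was -1.02 (SE 0.11, edgeR adjusted p = 1.79e-05), and -1.01 (SE 0.07, edgeR adjusted p = 1.89e-08) without the 2. Hr was the only one of 11 thyroid-responsive genes that passed with all libraries, where 9 were lower and the median was -0.24. Dio2, the deiodinase that makes active thyroid hormone in astrocytes and tanycytes, was added without the 2 (-0.56, edgeR adjusted p = 0.0208), and the median was then -0.08. Dbp, an output factor of the clock, stood at 35.0, 38.4 and 42.0 CPM in pair-fed and 26.6, 30.3 and 33.1 CPM in ad libitum libraries (0.37, edgeR adjusted p = 0.0103). Dbp was the only one of 18 clock genes that passed with all libraries, 10 of which were higher, and its call was lost with the replicate number as a block (edgeR adjusted p = 0.0747). Without ad libitum libraries 1 and 3, Nr1d1, which encodes the repressor REV-ERBα, also rose (0.30, edgeR adjusted p = 0.0046) and Npas2, a partner of Arntl, fell (-0.38, edgeR adjusted p = 0.0261). Dbp overlaps Sphk2 and Nr1d1 overlaps Thra on the opposite strand.

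Chaperones of the endoplasmic reticulum, which fold secreted proteins, were lower by small amounts. With all libraries none of 20 passed and 17 were lower, with a median of -0.07, while 7 of the 17 had an unadjusted p under 0.05. Of all 17893 genes tested, 9240 were lower, 1332 of them with such a p. Without ad libitum libraries 1 and 3, 4 fell: Hspa5 (BiP) by -0.21 (edgeR adjusted p = 0.0261), Calr by -0.22 (edgeR adjusted p = 0.00299), Pdia6 by -0.18 (edgeR adjusted p = 0.0116) and Dnajc3 by -0.20 (edgeR adjusted p = 0.0274). Hspa5 stood at 319 to 383 CPM in pair-fed and 384 to 402 CPM in the 5 ad libitum libraries, so these groups did not overlap, and ad libitum library 3 held 291 CPM. Of 20 metabolic genes linked to FOXO factors and fasting, none passed in either fit. Among them Angptl4, an inhibitor of lipoprotein lipase, was at 3.72 to 7.16 CPM in pair-fed and 5.95 to 10.1 CPM in ad libitum libraries (-0.61, edgeR adjusted p = 0.102). Of 22 genes of cholesterol and fatty acid synthesis, 15 were higher and none passed, with a median of 0.07.

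The peptides and receptors that govern appetite in the arcuate nucleus showed no call. None of the 21 genes of arcuate feeding peptides and of melanocortin and leptin signalling passed in either fit; with all libraries 11 were higher, 10 lower and the median was 0.0072, and 1 higher and 1 lower had an unadjusted p under 0.05. DESeq2, limma-voom and the other alternatives also called none of Agrp, Npy, Pomc, Cartpt and Mc4r. Agrp, the hunger peptide that antagonises melanocortin receptors, stood at 6.60, 11.5 and 12.6 CPM in pair-fed and 5.37, 8.26 and 11.2 CPM in ad libitum libraries. Its groups overlapped, with 4 of 6 pair-fed libraries above the ad libitum range. The log2 fold change was 0.37 with a 95% interval from 0.02 to 0.72 (edgeR adjusted p = 0.346). Agrp overlaps Ctcf and Ripor1 on the opposite strand, so its counts are uncertain. Npy, co-released with Agrp, stood at 47.8 to 72.2 CPM in pair-fed and 39.7 to 85.4 CPM in ad libitum libraries (log2 fold change 0.02, interval -0.30 to 0.34). Pomc, the precursor of the satiety peptide α-MSH, stood at 26.5 to 64.2 CPM in pair-fed and 22.8 to 53.3 CPM in ad libitum libraries (0.24, interval -0.14 to 0.62).

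Cartpt, which encodes the CART peptides, differed by 0.04 (interval -0.16 to 0.24). Mc4r, the melanocortin receptor named in the title of the study, stood at 3.84, 4.21 and 4.43 CPM in pair-fed and 2.68, 4.24 and 4.85 CPM in ad libitum libraries. The difference was 0.0072 with an interval from -0.23 to 0.24, so changes beyond these bounds lay outside the interval while smaller ones were not detectable at 19 to 141 counts per library. The control means were 5.83 CPM for Mc4r, 52.7 CPM for Pomc and 104 CPM for Cartpt, above the means of both risperidone groups.

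Receptors bound by risperidone and related receptors held no call among 18 tested in either fit. With all libraries 16 of the 18 were lower in pair-fed, with a median of -0.10, and without the 2 libraries 13 were lower. Htr2a, the serotonin receptor that risperidone blocks, stood at 17.0 to 25.3 CPM in pair-fed and 17.7 to 33.3 CPM in ad libitum libraries (-0.15, edgeR adjusted p = 0.544). Of 25 other hypothalamic neuropeptides tested, none passed. Avp and Oxt, the magnocellular hormones, ranged from 8.90 to 233 CPM and from 8.20 to 178 CPM within the pair-fed group. Ad libitum values of Avp, from 24.2 to 175 CPM, lay inside that range. The summed markers of the paraventricular and supraoptic nuclei ran from 153.0 to 583.8 CPM in pair-fed and from 182.2 to 471.6 CPM in ad libitum libraries. The ad libitum range of this sum lay wholly inside the pair-fed range, and none of those 10 markers passed.

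Genes of the interferon response and antigen presentation were nearly all higher in pair-fed libraries without a call. With all libraries 16 of 17 were higher, with a median of 0.29, 6 had an unadjusted p under 0.05 and none passed. Without the 2 libraries 15 were higher and 3 had such a p. Of all 17893 genes tested with all libraries, 48.4% were higher, and 1090 were higher with such a p. Ifit1, an interferon-induced RNA-binding protein, stood at 3.62 to 10.1 CPM in pair-fed and 3.08 to 4.90 CPM in ad libitum libraries (0.69, edgeR adjusted p = 0.214), with a control mean of 6.25 CPM. The list sum of 258.8 to 422.6 CPM in pair-fed overlapped that of 236.1 to 327.1 CPM in ad libitum libraries. Markers of pericytes and fibroblasts were also higher in 10 of 12, with a median of 0.35, and haemoglobin and cold-responsive genes in 6 of 7, with a median of 0.54, again with none that passed. Of 10 ependyma markers, which mark ciliated cells of the ventricular lining, 9 were higher with a median of 0.28, 7 had an unadjusted p under 0.05 and none passed. Without the 2 libraries all 10 were higher, with a median of 0.23, and 4 had such a p. Their sum was 71.9 to 94.7 CPM in pair-fed, 50.8 to 84.9 CPM in ad libitum and 75 to 91.04 CPM in control libraries. The sums of pericyte and fibroblast markers were 209.9 to 344.5 CPM in pair-fed and 208.9 to 328.7 CPM in ad libitum libraries, and their part in the interferon genes was not tested. Of the 12 microglia markers, 11 were higher with a median of 0.04, and none passed.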

How the data were processed

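Total RNA of hypothalamus slices was sequenced as paired-end reads on a DNBseq instrument, per the labels' protocols. The authors deposited raw counts of reads per gene, whole numbers with no normalization, for 20 libraries. Per the submitters' processing notes the tools were STAR, featureCounts and DESeq2 and the build was given as GRCm38 and mm10. No version, annotation or strand setting is stated in the sources used here. Of 55471 genes, 55230 were matched by identifier to GENCODE M21, and the other 241 held 0.00354% of counts.

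Counts were tested with the quasi-likelihood test of edgeR 4.0.16 in R 4.3.3, with TMM scaling, filterByExpr at a minimum count of 10 and 1 coefficient per group over all 20 libraries, then over the 18 without risperidone ad libitum libraries 1 and 3. Tests were two-sided with Benjamini-Hochberg adjustment over all genes tested, and 0.05 was the threshold. "Rose" and "fell" mean pair-fed against ad libitum past it. Levels are CPM with TMM scaling, and intervals are 95% from the fit. Depth is given with the results, and intervals cover the spread between libraries. A chi-square test over genes gave at least 2.64 per degree of freedom in each of 57 within-group pairs of libraries, so none was a repeat within sampling noise. The procedure was tested on simulated data, in which all genes shared the same dispersion and no library stood apart. That test does not cover deviations such as those of ad libitum libraries 1 and 3. Promoter windows came from RefSeq (GRCm38.p6).

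Genes were named by rule: in each fit up to 12 per direction with the smallest p among called genes of at least 1 CPM, without pseudogenes, predicted genes or genes that lack a symbol; a fixed set of feeding, activity and glucocorticoid genes; and up to 4 members with the smallest p in each list described. Genes of list counts named beyond it, such as Nr4a1, Homer1, Hspa5, Pdia6, Gpd1, Zbtb16, Nr3c1 and Sgk1, were chosen after their values were seen. The comparison, its members and the 38 gene lists were chosen with earlier results of these data known. Each list's count of called genes is given for described lists; none of the members of the other lists passed with all libraries, and without the 2 libraries A2m fell in the acute phase list. Alternatives were RLE and upper quartile scaling, 2 filters, DESeq2 1.42.0, limma-voom (limma 3.58.1), robust dispersion, the risperidone groups alone, a replicate block and leaving out each of the 20 libraries.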

Additional observations from a re-analysis of the deposited data

Results flagged for a closer look

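Single libraries stood far from the rest of their group in 14 of 123 sets of a named gene in a group; chance alone places about 1 in 20 groups past the limit used, so several of these can be expected. Risperidone ad libitum library 1 accounted for 7, all with the highest value. Its Egr1 level was 115 CPM against 30.5 to 49.8 CPM in the other 6 libraries, Arc 56.7 CPM against 16.8 to 22.4, and Junb 49.8 CPM against 12.8 to 19.5. Nr4a3 stood at 34.2 CPM against 8.599 to 11.2 there, Nab2 at 25 CPM against 10.8 to 14.2, Fosb at 19 CPM against 8.21 to 12 and Egr4 at 13.6 CPM against 0.845 to 2.40. Of these genes, all but Fosb were named only through the fit without ad libitum libraries 1 and 3. That choice favoured genes with a high value in library 1, so the chance rate does not apply to them. In risperidone ad libitum library 3, Hif3a stood at 41.3 CPM against 19.8 to 28.3. Control library 4 was apart in Fos, at 28.8 CPM against 17.5 to 21.7, in Fam107a, at 361 CPM against 391 to 408, and in Hr, at 72.5 CPM against 86.2 to 96.5. Control library 5 held 20.2 CPM of Twistnb against 17.8 to 18.5. Pair-fed library 2 held 339 CPM of Fam107a against 262 to 291, and pair-fed library 5 held 6.01 CPM of Egr4 against 3.67 to 4.46.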

How the results depend on the processing

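Without ad libitum libraries 1 and 3, 43 genes rose and 99 fell, and 11 immediate early genes rose, against 20, 51 and 4 with all libraries. With all libraries DESeq2 called 52 higher and 118 lower with 7 immediate early genes, limma-voom 48 and 91 with 11, and the risperidone groups alone 8 and 23 with 5 glucocorticoid-responsive genes lower. Without the 2 libraries the counts were 69 and 152 with no filter on low counts, 68 and 163 with DESeq2, and 23 higher with the risperidone groups alone. The cause of these shifts was not tested. The log2 fold change of Cartpt turned to -0.049 without the 2 libraries and -0.025 with limma-voom, and that of Mc4r to -0.042, -0.004545 with DESeq2 and -0.029 with limma-voom; neither was called anywhere.

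With each library left out in turn, the genes that rose numbered 10 to 37 and those that fell 27 to 93, or 22 to 55 and 61 to 112 without libraries 1 and 3. Immediate early genes numbered 3 to 10, or 8 to 14, and glucocorticoid-responsive genes 5 to 9, or 6 to 10. The log2 fold change then ran from -0.058 to 0.12 for Npy, from -0.010 to 0.098 for Cartpt and from -0.048 to 0.052 for Mc4r.

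The replicate numbers shared by the labels gave no sign of pairing. The 6 correlations of deviations of same-numbered pair-fed and ad libitum libraries ran from -0.0825 to 0.124. Those of differently numbered libraries ran from -0.245 to 0.315. Such correlations cannot decide whether the mice were paired, and a pairing with control libraries was not checked. With the number as a replicate block, 11 genes were higher and 37 lower, 4 of them immediate early genes and 7 glucocorticoid-responsive, and 23 and 63 without the 2 libraries. The calls of Sox21, Dbp, Gpr3, Sall2, Pipox, Nde1 and Fkbp5 with all libraries were lost under the block. Depth limits genes of a few counts, such as Egr4 at 6 counts in the shallowest library.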
